A study of Homo sapiens with 4 samples.

Results

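The 9 genes described here encode the machinery that marks and licenses origins of DNA replication: the 6 subunits of the origin recognition complex (ORC1 to ORC6), the helicase loaders CDC6 and CDT1, and geminin (GMNN), the inhibitor of CDT1. They were found by symbol, 9 of the 25192 genes in each table. The set was chosen by a measured value: CDC6 was higher with the FCN3 virus while other replication genes were lower, and the partners of CDC6 were set beside it. The difference between FCN3-virus-transduced and control cells is therefore given for these 9 genes as a description, with no p-value for any of them. The same holds for the other replication genes below, whose direction was part of the choice.

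RNA was sequenced from A549, a human lung adenocarcinoma cell line, in 4 libraries. In 2 of them the cells had received the control empty virus (EV), a retrovirus that expresses only GFP, and in the other 2 a virus that expresses V5-tagged full-length FCN3, a secreted lectin, together with GFP. RNA was taken 48 h after infection in both groups, and no uninfected library was analysed here. The sources do not say whether same-numbered libraries came from one culture or batch, so the replicate number was entered in a second fit only. With n = 2 in each group, p-values measure the spread between these libraries, which may be technical.

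An origin is licensed when ORC, bound to DNA, recruits CDC6 and then CDT1 with the MCM2 to MCM7 helicase, which is loaded around DNA as an inactive ring. Licensing is confined to the time between late mitosis and the start of S phase, because CDKs and ubiquitin ligases remove or inactivate the loaders later and geminin binds CDT1. Transcription of CDC6, CDT1, ORC1 and GMNN is known to rise with E2F activity at the transition from G1 to S phase, whereas the inner ORC subunits are made more evenly through the cycle.

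The promoters of CDC6, CDT1, GMNN and ORC1 are printed because these genes share a known E2F control, yet CDC6 and the other 3 lay on opposite sides of the EV level. The sequences are those of RefSeq, from 250 bases before to 50 bases after an annotated start, and each was matched exactly to 1 place in GRCh37, the build the reads were aligned to. Capitals mark the E2F letters searched, which were TTTCCCGC, TTTGGCGC, TTTCGCGC and TTTGCCGC on both strands.
CDC6, chr17:38443881-38444180, plus strand: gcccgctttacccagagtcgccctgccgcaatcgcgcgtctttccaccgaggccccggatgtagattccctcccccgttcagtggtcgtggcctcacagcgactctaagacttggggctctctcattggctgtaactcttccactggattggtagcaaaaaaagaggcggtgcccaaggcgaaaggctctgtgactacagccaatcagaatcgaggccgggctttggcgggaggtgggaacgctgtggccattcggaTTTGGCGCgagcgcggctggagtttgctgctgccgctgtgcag
CDT1, chr16:88869947-88870246, plus strand: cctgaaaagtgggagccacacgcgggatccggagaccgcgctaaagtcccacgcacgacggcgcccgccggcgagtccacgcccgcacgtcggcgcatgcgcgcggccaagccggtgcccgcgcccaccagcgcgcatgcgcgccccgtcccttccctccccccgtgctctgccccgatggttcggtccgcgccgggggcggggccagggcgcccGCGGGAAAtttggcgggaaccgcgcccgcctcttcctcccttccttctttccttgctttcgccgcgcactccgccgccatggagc
GMNN (the downstream of its 2 windows), chr6:24775391-24775690, plus strand: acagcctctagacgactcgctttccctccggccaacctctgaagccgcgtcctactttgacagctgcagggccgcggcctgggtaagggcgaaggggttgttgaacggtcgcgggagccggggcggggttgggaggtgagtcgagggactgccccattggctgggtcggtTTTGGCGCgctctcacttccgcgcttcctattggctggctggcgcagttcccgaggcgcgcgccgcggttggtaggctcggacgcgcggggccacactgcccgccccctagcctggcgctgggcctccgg
ORC1, chr1:52870046-52870345, minus strand: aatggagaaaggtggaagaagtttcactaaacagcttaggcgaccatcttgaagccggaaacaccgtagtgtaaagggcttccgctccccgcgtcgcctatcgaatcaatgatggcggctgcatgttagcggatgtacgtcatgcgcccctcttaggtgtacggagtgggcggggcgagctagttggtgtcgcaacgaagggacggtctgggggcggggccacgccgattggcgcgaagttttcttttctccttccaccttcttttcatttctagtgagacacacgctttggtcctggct

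All 9 genes had a promoter in the table, GMNN and ORC4 with 2 windows each, which gave 11 windows. The E2F letters were present in 4 of the 11, those of CDC6, CDT1, ORC3 and the downstream window of GMNN, against 3.31% of 35116 promoter windows. The start used for that GMNN window, the one printed, lies 482 bases from the GENCODE start of the gene. The other GMNN window, whose start lies 6 bases from it, had no match. In CDC6 the match began at base 8 after the start and in CDT1 at base -35. ORC1 had no match to these letters in its window. CCAAT boxes, searched as CCAAT on both strands, were present in 6 windows (34.6% of all windows), with 3 in CDC6 and none in CDT1. The CHR letters TTTGAA (15.2% of all windows), the ATF4-type element TGATGNAA (3.62%) and the unfolded protein response element TGACGTGG (0.729%) were found in none of the 11 windows. A match of letters describes the sequence and is not evidence that a factor binds there.

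The 4 tables summed to between 16353554 and 35733735 expected counts, replicate 1 being the deeper library in each group. FCN3 was counted 1 and 0 times in EV cells, against 722388 and 448352 expected counts after the FCN3 virus, where it took 4.16% and 4.47% of the TPM, so that the TPM of all other genes is lowered slightly in these libraries. The 6 epithelial markers and the 6 genes known to be high in A549 were above 3 counts in every library. The epithelial list summed to 7823 to 9824 TPM in EV cells and 8511 to 10242 TPM with the FCN3 virus, with EPCAM at a log2 fold change of -1.12 and KRT19 at 1.24. The sum of the A549 list was lower without overlap, at 10137 to 10600 TPM after 13314 to 13871 TPM, but its genes were split. ALDH1A1, at a log2 fold change of -0.64, was among 4 that were lower without overlap. AKR1B10 was higher without overlap (0.16), and AKR1C1 overlapped between the groups (0.08). The alveolar surfactant genes SFTPC, SFTPB and SFTPA1 and the lung factor NKX2-1 were at or under 3 counts in every library, and the alveolar list summed to 1.01 to 1.05 TPM in EV cells and 1.56 to 2.5 TPM with the FCN3 virus. Within that list LAMP3 went from 0.224 ± 0.148 to 2.73 ± 0.48 CPM (SD, n = 2). NAPSA went the other way, with a log2 fold change of -0.61 (standard error 0.61). Of the markers of other cell types, 3 of 6 leukocyte, 4 of 6 endothelial and 3 of 6 fibroblast genes were at or under 3 counts throughout, among them PTPRC, PECAM1 and DCN. The summed TPM of the leukocyte list was 36.6 to 37.5 in EV cells and 51 to 63.1 with the FCN3 virus, most of it CD68, a lysosomal gene that is not restricted to leukocytes. The endothelial sums were 0.12 to 0.23 and 0.1 to 0.2 TPM and the fibroblast sums 3.6 to 8.67 and 2.86 to 8.39 TPM. The part of any of these in the results below was not tested.

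Levels of the 9 genes were first compared per length, in TPM, within EV cells. CDC6 was the most abundant at 90 ± 9.31 TPM (SD, n = 2) and ORC4 the least at 10.4 ± 0.94 TPM. Between them followed GMNN at 86.4 ± 7.17, ORC6 at 55.9 ± 3.88, ORC5 at 47.3 ± 4.71, CDT1 at 35.8 ± 0.453, ORC1 at 32.4 ± 2.02, ORC3 at 31 ± 1.92 and ORC2 at 28.4 ± 0.75 TPM (all SD, n = 2). CDC6 and GMNN overlapped between the EV libraries, as did ORC1 and ORC3, so the order within these pairs is not larger than their spread. With the FCN3 virus CDC6 remained the first at 107 ± 8.4 TPM and GMNN the second at 51.8 ± 2.26 TPM, while ORC1 went from the sixth to the eighth place at 17.1 ± 1.05 TPM.

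**Figure D1:**
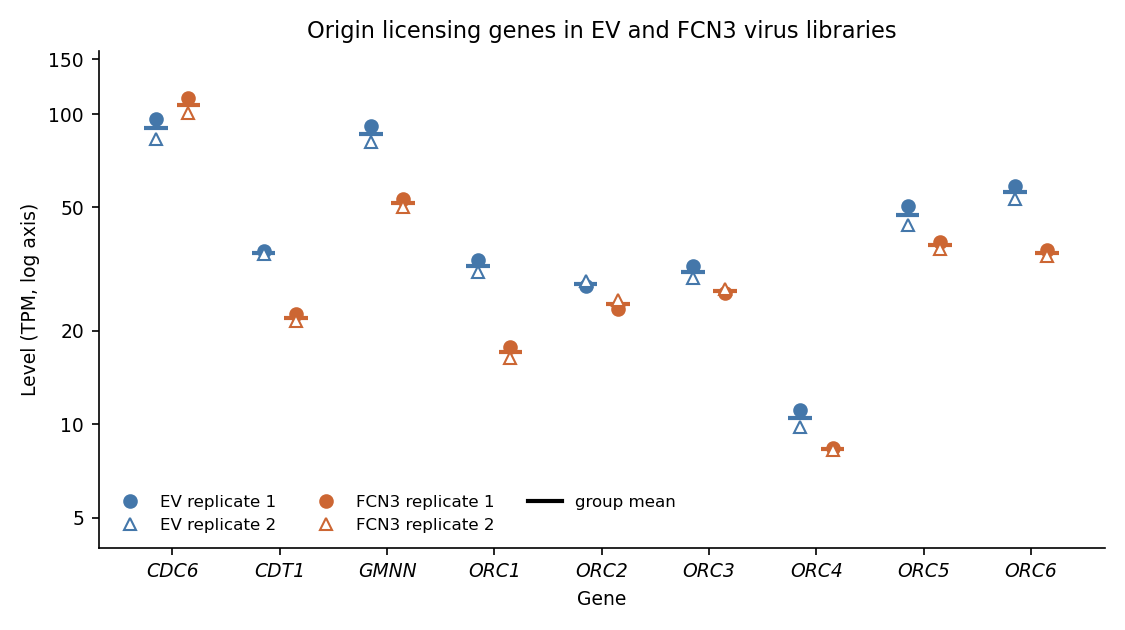
TPM (log axis) of the 9 licensing genes in each of the 4 libraries. Colours give the group, symbols the replicate number and horizontal lines the group means. Both FCN3 libraries lie above both EV libraries for CDC6 and below them for the other 8 genes, with wide gaps for CDT1, GMNN, ORC1 and ORC6.

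CDC6, an ATPase of the same family as ORC1 that closes the ORC ring and starts helicase loading, lies on the plus strand of chromosome 17 of GRCh37 from 38444131 to 38460909. Its expected counts were 5538 and 2217 in EV replicates 1 and 2, and 6543 and 3377 in FCN3 replicates 1 and 2. Its level was 96.6 and 83.4 TPM in the EV libraries and 113 and 101 TPM with the FCN3 virus, so that the groups did not overlap, although EV replicate 1 and FCN3 replicate 2 were close. On the scale of counts per 1000000 after TMM normalisation (CPM), which allows for the reads taken by FCN3, CDC6 went from 142 ± 13.8 to 181 ± 16.4 CPM (SD, n = 2). This is 1.27-fold, a log2 fold change of 0.35 with a standard error of 0.11. Within replicate numbers the log2 ratio was 0.34 and 0.36, with counting errors of 0.03 and 0.04.

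CDT1, which brings the helicase to ORC and CDC6, lies on the plus strand of chromosome 16 from 88870197 to 88875666. It was at 36.1 and 35.5 TPM in EV cells and at 22.6 and 21.5 TPM with the FCN3 virus, so the EV libraries agreed closely and both FCN3 libraries were well below them. In CPM it was at 0.663 of its EV level, with a log2 fold change of -0.59 (standard error 0.10) and same-number ratios of -0.55 and -0.64. Its inhibitor GMNN, on the plus strand of chromosome 6 from 24775159 to 24786327, was at 91.5 and 81.3 TPM in EV cells and 53.4 and 50.2 TPM with the FCN3 virus. The log2 fold change of GMNN was -0.63 (standard error 0.11), at 0.645 of the EV level in CPM. The loader and its inhibitor were thus lower by similar amounts.

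ORC1, the subunit whose protein is removed and made again in each cell cycle, had the largest difference of the 9. Its position is chromosome 1, minus strand, 52838501 to 52870095. The EV libraries gave 33.9 and 31 TPM and the FCN3 libraries 17.8 and 16.3 TPM. In CPM it was at 0.565 of the EV level, a log2 fold change of -0.82 (standard error 0.11), and the ratios within replicate numbers were -0.81 and -0.84. ORC6, the subunit that is not related to the other ATPase-like subunits and is held more loosely in the complex, lies on the plus strand of chromosome 16 from 46723555 to 46732306. It was at 58.6 and 53.1 TPM in EV cells and at 36.4 and 34.9 TPM with the FCN3 virus, a log2 fold change of -0.55 (standard error 0.10). Neither gene overlapped between the groups.

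ORC2, ORC3, ORC4 and ORC5 form the inner part of the complex, and their differences were smaller, with log2 fold changes between -0.22 and -0.10 (median -0.17). ORC2 (chromosome 2, minus strand, 201773700 to 201828403) was at 27.8 and 28.9 TPM in EV cells and 23.6 and 25.2 TPM with the FCN3 virus. ORC3, on the plus strand of chromosome 6 from 88299785 to 88377171, was at 32.3 and 29.6 against 26.6 and 27.4 TPM. For these 2 genes the log2 fold changes in CPM were -0.12 and -0.10, each with a standard error of 0.10, so about the size of their error. For ORC3 the same-number ratio was -0.16 in replicate 1 and -0.03 in replicate 2.

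ORC4 (chromosome 2, minus strand, 148687965 to 148779173) was at 11.1 and 9.79 TPM in EV cells and 8.42 and 8.26 TPM with the FCN3 virus. Its log2 fold change was -0.22 (standard error 0.11). ORC5 (chromosome 7, minus strand, 103766788 to 103848495) was at 50.6 and 43.9 against 38.8 and 36.9 TPM, and its log2 fold change was also -0.22 (standard error 0.11). The groups did not overlap in either gene, but the gap between the lowest EV and the highest FCN3 library was small. ORC4 overlaps ACVR2A by 431 bases and MBD5 by 594 bases, both on the other strand. The strand setting of the counting is not given in the sources used here, so reads of these stretches may not be separated.

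All 9 genes passed the filter on low counts. Both FCN3 libraries lay below both EV libraries in 8 of the 9, which was so for 26.5% of the 14099 tested genes, and CDC6 lay above in both, as did 28% of tested genes. The median log2 fold change was -0.22 over the 9 genes, -0.39 without CDC6 and 0.02 over all tested genes. CDC6 stood at the 81st percentile of all tested genes by log2 fold change, ORC1 at 3.18, GMNN at 5.6, CDT1 at 6.46 and ORC6 at 7.41, while ORC2 and ORC3 stood at 33.5 and 35.8.

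At an FDR of 0.01, edgeR's quasi-likelihood test without the replicate number called 0 of the 9 genes, against 0.965% of all tested genes. At an unadjusted p under 0.05 the count was 5 of 9, beside 25.1% of all tested genes, and at an FDR of 0.05 it was 4, all lower, beside 2.77%. DESeq2, the tool of the study, called 4 lower (CDT1, GMNN, ORC1 and ORC6), beside 3.47% of its tested genes called lower. With the replicate number as a block in edgeR, 6 of the 9 were called: CDT1, GMNN, ORC1, ORC5 and ORC6 lower, beside 17.1% of all tested genes, and CDC6 higher, beside 19.1%. With the block in DESeq2, 4 were called lower (CDT1, GMNN, ORC1 and ORC6), beside 7.91% of its tested genes, and CDC6 higher, beside 7.93%. ORC2, ORC3 and ORC4 were not called by any of these fits, which does not show that they were equal between the groups. As the same contrast chose the set, these counts describe the fits and nothing further was read from them.

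**Figure D2:**
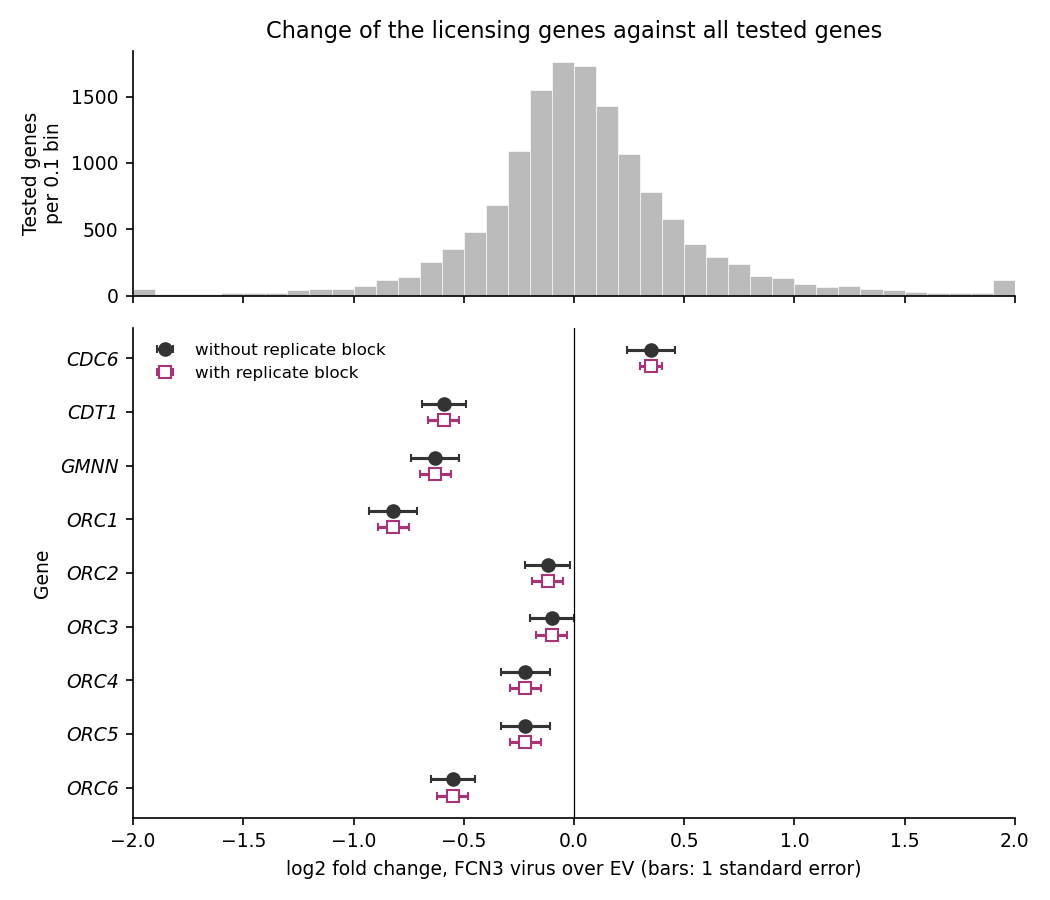
The upper panel counts tested genes in bins of 0.1 of log2 fold change, FCN3 virus over EV, with genes beyond -2 or 2 placed in the end bins. The lower panel gives the 9 licensing genes with 1 standard error, without and with the replicate block. CDC6 sits at 0.35, ORC2 to ORC5 between -0.22 and -0.10, and ORC6, CDT1, GMNN and ORC1 between -0.82 and -0.55. The block narrows the errors and leaves the values in place.

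Ratios between members were taken within each library, where a scaling of the whole library cancels. The ratio of CDC6 to CDT1 was 2.67 and 2.35 in EV cells and 4.98 and 4.7 with the FCN3 virus, 1.92-fold higher on average and without overlap. CDC6 to ORC1 went from 2.85 and 2.69 to 6.33 and 6.18, and CDC6 to GMNN from 1.06 and 1.03 to 2.11 and 2.01. The ratio of CDT1 to its inhibitor GMNN, in contrast, was 0.395 and 0.436 in EV cells and 0.424 and 0.428 with the FCN3 virus, where the EV range enclosed the FCN3 values. ORC1 stood at 1.13 and 1.06 times the median of ORC2 to ORC5 in EV cells and at 0.71 and 0.621 times with the FCN3 virus. For ORC6 the same ratio was 1.95 and 1.82 against 1.45 and 1.33. These ratios come from the contrast that chose the set and carry no test.

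**Figure D3:**
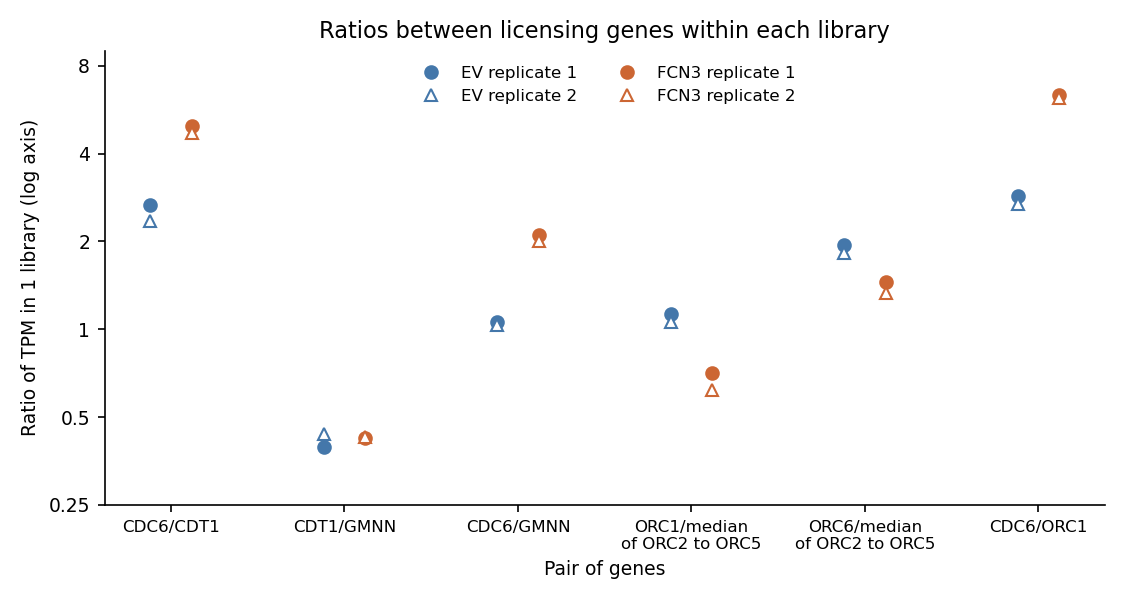
Ratios of TPM between pairs of licensing genes within each library, on a log axis, with ORC1 and ORC6 set against the median of ORC2 to ORC5. The CDT1 to GMNN ratio lies near 0.4 in all 4 libraries, whereas each ratio with CDC6 on top is higher in both FCN3 libraries than in both EV libraries.

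Measures that the choice did not use were examined next. The difference between replicates 1 and 2, with the condition in the model, was tested over all genes with edgeR. Among the 9 genes, 1 was called at an FDR of 0.01, CDC6, beside 22.2% of all tested genes. The log2 level of CDC6 was 0.19 higher in replicate 1 (edgeR adjusted p = 0.0037, standard error 0.05), and this held in both groups, by 0.20 in EV cells and 0.18 with the FCN3 virus. It was not called by DESeq2 (adjusted p = 0.069), nor by edgeR without a filter on low counts. For the other 8 genes the difference ran from -0.08 for ORC2 to 0.14 for ORC5, with edgeR adjusted p between 0.11 and 0.67. For scale, the log2 fold change between the groups was 0.35 for CDC6, beside 0.19 between its replicates, and -0.82 for ORC1, beside 0.13.

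The mean transcript length that RSEM assigns to a gene, which moves when reads shift between isoforms, also played no part in the choice. CDC6 and CDT1 have 1 transcript each in the tables, so nothing can shift. For ORC1, ORC3, ORC4, ORC5 and ORC6 the length varied by between 0.032% and 0.22% over the 4 libraries. It varied most for GMNN, from 1181 to 1204 bases, and for ORC2, from 3150 to 3182 bases. In both, the EV values lay within the range of the FCN3 values, so no shift with the virus was seen. An exact permutation test of 2 libraries against 2 cannot reach a two-sided p of 0.05 and was not run.

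The other genes of licensing and of the step that follows were taken from lists written with earlier results of these data known. Since lower values of replication genes in this contrast entered the choice, their counts of calls describe the fits and are no independent test of that direction. The MCM2 to MCM7 helicase, the load that CDC6 and CDT1 place on DNA, was lower in all 6 subunits, with a median log2 fold change of -0.82. MCM5 alone passed an FDR of 0.01 in edgeR without the block, beside 0.965% of all tested genes, from 173 ± 3.92 to 94.6 ± 1.91 CPM (SD, n = 2). With the replicate block all 6 passed, beside 17.1% of all tested genes called lower. The call of MCM5 was lost without EV replicate 1, FCN3 replicate 1 or FCN3 replicate 2, each of which left 0 of the pathway genes called, while 9 were called without EV replicate 2. The log2 fold changes of the 6 subunits ran from -0.95 for MCM2 to -0.63 for MCM7, so ORC1 at -0.82 lay within the range of the helicase subunits, GMNN at its edge, CDT1 and ORC6 just short of it and ORC2 to ORC5 well short of it.

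Origin firing factors turn the loaded helicase into an active fork. Of the listed genes 23 were found, and all were tested and had values below 0, with a median log2 fold change of -0.55. Without the block edgeR called 0 of them, beside 0.965% of all tested genes, and 19 had an unadjusted p under 0.05, beside 25.1%. DESeq2 called 10 lower, beside 3.47% of its tested genes. With the block edgeR called 22 lower, beside 17.1% of all tested genes, the exception being TIPIN at -0.16. GINS2, a subunit of the active helicase, went from 70.4 ± 8.26 to 32.7 ± 4.89 CPM (SD, n = 2), or by -1.10 in log2 (standard error 0.15). GINS1 of the same complex and CLSPN, an adaptor of the replication checkpoint, each had -0.86 (standard errors 0.17 and 0.14).

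Genes that control licensing, among them the cyclins, CDKs and ubiquitin ligases that remove CDC6, CDT1 and geminin, had a median log2 fold change of -0.43 over 20 genes. Without the block edgeR called 0, beside 0.965% of all tested genes, and 11 of 20 had an unadjusted p under 0.05, beside 25.1%. DESeq2 called 5 lower, beside 3.47% of its tested genes. With the block edgeR called 13 lower and 2 higher, beside 17.1% and 19.1% of all tested genes. CCNA2, the S phase cyclin, had a log2 fold change of -0.95 (standard error 0.15). CCNF, whose F-box protein targets CDC6, had -0.94 (standard error 0.10). SKP2, whose ligase targets CDT1, had -0.82 (standard error 0.13). All 3 were called lower with the block.

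FBXW7 and HUWE1 had values above 0, as CDC6 did, and so did CUL4A (0.08) and SETD8 (0.06), whose groups overlapped. FBXW7, an F-box protein that targets cyclin E, was at 9.56 ± 1.61 CPM in EV and 14.2 ± 0.434 CPM in FCN3 libraries (SD, n = 2), or 0.55 in log2 (standard error 0.17). HUWE1, a ubiquitin ligase known to act on CDC6, was at 346 ± 63.2 and 388 ± 39.9 CPM, and its groups overlapped (log2 fold change 0.16, standard error 0.15). FBXW7 and HUWE1 were called higher with the block, CUL4A and SETD8 were not, and none of these was called without it.

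Accessory licensing genes, such as the ORC-associated protein gene LRWD1 and the histone acetyltransferase KAT7 with its partners, had values on both sides of 0, from -0.45 to 0.33. Of the 10 that the tables hold, 9 were tested, with a median of -0.28. Without the block edgeR called 0, beside 0.965% of all tested genes, and 4 of 9 had an unadjusted p under 0.05, beside 25.1%. DESeq2 called 0, beside 3.47% of its tested genes called lower. With the block edgeR called 4 lower and 2 higher, beside 17.1% and 19.1% of all tested genes. MCM8 (log2 fold change -0.45, standard error 0.11) and MCMBP, which binds the MCM proteins (-0.38, standard error 0.10), were among those called lower with the block. BRPF3 and PHF17 (now JADE1), scaffold proteins that pair with KAT7, had log2 fold changes of 0.33 and 0.19 (standard errors 0.09) and were called higher with the block. PHF15 (now JADE2) and ING5 of the same list went the other way, at -0.31 and -0.28 (standard errors 0.11 and 0.13). Both were called lower with the block, so the partners of KAT7 were split.

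Proliferation markers differed in the same direction as most of the replication genes above, though not CDC6. All 10 were lower (median log2 fold change -0.84), and their summed level was 1932 to 2214 TPM in EV cells against 1100 to 1182 TPM with the FCN3 virus. edgeR called 2 of them without the block, AURKA and PLK1, beside 0.965% of all tested genes. With the block it called 10 lower, beside 17.1% of all tested genes. In RNA from whole cultures, fewer cells in the phases that make a transcript and less of it per cell cannot be told apart, and the part of this difference in the values of the licensing genes was not tested.

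Genes whose pattern was most like that of CDC6 were sought by Euclidean distance over the 4 libraries, on log2 CPM centred per gene, among the 8310 genes whose log2 CPM averaged 4 or more. The nearest were SYNJ2 (distance 0.0282), CDK17 (0.0326) and RSPRY1 (0.0347), with log2 fold changes of 0.37, 0.35 and 0.35. With 4 libraries many genes share so simple a pattern, and likeness in it says nothing of shared control.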

How the data were processed

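Expression was measured by RNA-seq in 4 libraries of A549 cells, 2 EV and 2 FCN3, grouped by their labels. The authors trimmed reads with Fastx_toolkit, aligned them to hg19 with STAR 2.6.1d and ran RSEM. The deposited tables of the authors hold expected counts, not normalised, with TPM and FPKM, both normalised by RSEM for length and depth, and transcript lengths. The transcript accessions in the tables are those of RefSeq.

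Expected counts were rounded and fitted in R 4.3.3 with edgeR 4.0.16 (TMM, filterByExpr, quasi-likelihood test, Benjamini-Hochberg adjustment over 14099 of 25192 genes, FDR 0.01). A standard error is the size of the log2 fold change over the square root of F. TPM was used for levels and ratios and FPKM as a check of ratios. DESeq2 1.42.0, limma 3.58.1 on log2(TPM + 1) and log2(TPM + 0.1), other size factors and filters, an offset from effective lengths, an FDR of 0.05, a replicate block and each library left out were the alternatives. The scripts were tested on simulated data. Counting errors cover sampling of reads only, and expression floors were set at 3 counts.

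The members and all lists were chosen with earlier results of these data known. Named were the 9 members, MCM2 to MCM7, the called genes (at most 5) and the 3 largest changes of each other pathway list, the genes of a list with the opposite sign called with the block, the 3 genes nearest to CDC6 and the neighbour with the nearest start. The ratio of CDC6 to GMNN was added after its values were seen. TIPIN, AURKA, PLK1, CD68, LAMP3, NAPSA, PHF15 and ING5 were also named after their values were seen. The same holds for EPCAM, KRT19, ALDH1A1, AKR1B10, AKR1C1, CUL4A and SETD8. MCIDAS and PRIM2 were not analysed here, nor were protein sequences. Gene positions are those of GENCODE release 44 mapped to GRCh37, and promoters those of RefSeq on GRCh38.p14, matched by sequence to GRCh37.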

Additional observations from a re-analysis of the deposited data

How the results depend on the processing

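No log2 fold change of a licensing gene changed sign in any of 126 values from 14 alternatives, and 107 of them stayed within the SD between replicates. CDC6 ranged from 0.25 to 0.46, ORC1 from -0.92 to -0.75, CDT1 from -0.70 to -0.55, GMNN from -0.74 to -0.54, ORC6 from -0.65 to -0.47, ORC2 from -0.22 to -0.07, ORC3 from -0.20 to -0.03, ORC4 from -0.32 to -0.12 and ORC5 from -0.32 to -0.11. Without EV replicate 1, ORC3 was at -0.03, ORC4 at -0.12 and ORC5 at -0.11. ORC3 was at -0.16 without EV replicate 2, and ORC2 at -0.07 without FCN3 replicate 1. Calls depended on the fit. Of the 9 genes, 0 were called without the replicate block, 4 with DESeq2, 4 at an FDR of 0.05, 6 with the replicate block and 5 with the replicate block in DESeq2, a fit added after seeing the data, which left out ORC5. Of the 59 pathway genes (58 tested), 1 was called without the block, 21 with DESeq2, 22 at an FDR of 0.05, 49 with the replicate block and 37 with the block in DESeq2. For comparison, edgeR without the block called 0.965% of all tested genes, and 2.77% lower at an FDR of 0.05. DESeq2 called 3.47% of its tested genes lower. With the block edgeR called 17.1% lower and 19.1% higher, and DESeq2 7.91% lower and 7.93% higher. With 1 library left out the count for the 9 genes was 0 each time, and that for the pathway genes ran from 0 to 9: 9 without EV replicate 2, and 0 without EV replicate 1, FCN3 replicate 1 or FCN3 replicate 2. The lone library of a group was then assumed to vary like the other group. The difference of CDC6 between replicate numbers was the 1 call among the 9 genes, and 0 were called with DESeq2 or without a filter on low counts. The cause of these shifts was not tested. Across 8310 genes, the difference between the EV replicates correlated with that between the FCN3 replicates (r = 0.806, genes not being independent), a hint from the data, as the labels do not say what the number marks. On log2(TPM + 0.1), without TMM normalisation, the median of the 12593 genes that averaged at least 1 TPM was -0.10. Values near -0.1 such as those of ORC2 and ORC3 therefore depend on the scaling.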

Other observations

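Some of the 9 genes start close to a gene on the other strand. ORC1 and PRPF38A, a splicing factor gene, start 179 bases apart, and both were lower with the FCN3 virus: PRPF38A went from 32.4 ± 0.709 to 21.9 ± 1.13 CPM (SD, n = 2), which is -0.57 on the log2 scale (edgeR adjusted p = 0.042, and 3.7e-08 with the replicate block), beside -0.82 for ORC1. The fit with the block called 17.1% of all tested genes lower. With 4 libraries it has few residual degrees of freedom, so its small p-values are weak evidence for a single gene. ORC6 and VPS35, a gene of the retromer that sorts endosomal cargo, start 125 bases apart and differed: VPS35 had a log2 fold change of -0.03 (standard error 0.09), beside -0.55 for ORC6. ORC3 and RARS2, the gene of the mitochondrial arginyl-tRNA synthetase, start 39 bases apart, with log2 fold changes of -0.10 and 0.11 and standard errors of 0.10 each. MBD5, which starts 593 bases from ORC4, had 0.40 (standard error 0.20, edgeR adjusted p = 0.29, and 0.012 with the block), beside -0.22 for ORC4. The difference between the genes of a pair was not tested.

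The nearest starts to the other 5 genes lay farther off, between 8148 bases for CDT1 and APRT and 120556 bases for ORC5 and LHFPL3, which had 0 counts. Only genes with deposited values were searched, here and for the pairs above, so a closer start of another gene would be missed. ORC2 overlaps RN7SL694P by 268 bases and a noncoding RNA gene by 418 bases, both on the other strand and without deposited values. Reads of these stretches may not be separated from those of ORC2. RARA, whose start is 21301 bases from that of CDC6, had a log2 fold change of -0.19 (standard error 0.11), on the other side of 0 from CDC6. APRT had -0.07, NIF3L1 near ORC2 -0.20 and C6orf62 near GMNN 0.27, with edgeR adjusted p between 0.28 and 0.68. Of these, C6orf62 alone was called with the replicate block (adjusted p = 0.00018 in edgeR), a fit that called 19.1% of all tested genes higher.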
